A study of Mus musculus with 24 samples.

Results

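Potassium channel genes were followed in the mouse retina after a blast-wave injury. The members were all genes whose symbol begins with Kcn, apart from 5 genes that were not used here. They were 64 of the 16387 genes in the deposited tables, with 63 of 14922 at 1 week, 60 of 15920 at 5 weeks and 59 in both. A further 30 Kcn symbols of the annotation were in neither table. Of the members, Kcng2, Kcnk10, Kcnq5 and Kcns3 were tabled at 1 week alone and Kcnt2 at 5 weeks alone.

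Whole retinas of adult male C57BL/6J mice were sequenced in 4 groups of 6. The mice with blast-induced traumatic brain injury (bTBI) were exposed to an overpressure wave in an enclosed chamber, and sham mice were handled alike without the wave. Retinas came from the eye that faced the wave, 8 days (called 1 week here) or 5 weeks after it. The labels name retinal ganglion cell (RGC) as the cell type, but rod markers summed to at least 61178 CPM in each retina, so the RNA was that of the whole tissue. RNA was extracted with one kit at 1 week and with another at 5 weeks, so that kit and timepoint cannot be told apart, while each timepoint had its own sham group.

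Potassium channels let potassium leave the cell, which sets the resting potential, ends each action potential and limits how fast a neuron can fire. Voltage-gated channels are built from 4 alpha subunits, to which beta subunits and KChIP proteins (Kcnip genes) can attach, while inward rectifiers (Kcnj) and 2-pore channels (Kcnk) carry resting currents. In the retina, RGCs send action potentials down the optic nerve and photoreceptors use other potassium channels to shape their light response.

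Values are CPM (read counts scaled to library size by the authors), and fold changes are differences of log2(CPM + 1) between bTBI and sham. They were tested with limma, and a gene was called at a Benjamini-Hochberg adjusted p under 0.005 over all genes of the table. Changes of genes near 1 CPM come out too small on this scale. The reads behind the tabled genes, inferred from the steps between values, ranged from 14301989 to 25158638 per retina.

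At 1 week 3 of 63 Kcn genes were called lower in bTBI retinas (4.76%, against 0.985% of all genes tested) and 0 were called higher (against 1.27%). They were Kcnip4, Kcnab3 and Kcnc2. At an adjusted p under 0.05, 12 were lower (against 3.06% of all genes) and 0 higher (against 3.02%), and at an unadjusted p under 0.05, 27 were lower (against 8.93%) and 1 was higher (against 8.32%). At 5 weeks 3 of 60 were called lower (5%, against 0.823%) and 0 higher (against 0.0126%), namely Kcnip1, Kcnip4 and Kcnc1. At an adjusted p under 0.05, 7 were lower (against 1.93%) and 0 higher (against 0.113%), and at an unadjusted p under 0.05, 18 were lower (against 6.95%) and 4 higher (against 3.97%). Kcnip4, 1 of 59 genes, was called lower at both timepoints (against 0.602% of all genes).

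The median log2 fold change of the Kcn genes was -0.14 at 1 week, beside -0.00024 for all genes tested, and 76.2% of the Kcn genes lay below 0 against 50.1% of all genes. At 5 weeks the median was -0.10 beside 0.0012, and 71.7% lay below 0 against 49.4%. All 6 bTBI retinas were below all 6 sham retinas for 9 Kcn genes at 1 week (14.3%, against 2.25%) and for 6 at 5 weeks (10%, against 1.75%). The reverse order was seen for 0 Kcn genes at 1 week (against 1.59%) and for 0 at 5 weeks (against 0.239%). Of the 59 genes in both tables, 35 were below 0 at both timepoints and 7 above 0 at both. Over all 14441 genes with a unique symbol in both tables, 4415 were below 0 at both and 4353 above 0 at both.

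**Figure D1:**
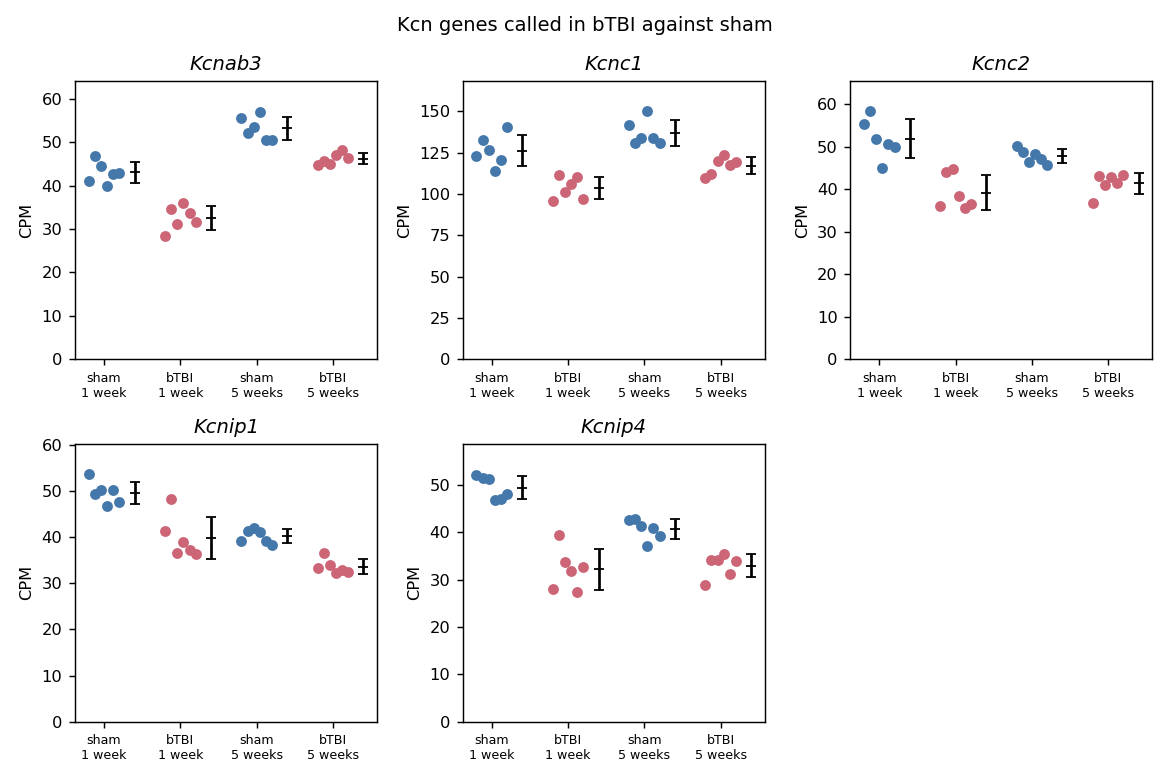
CPM of the 5 Kcn genes called at either timepoint, 1 point per retina, with the mean and SD of each group of 6 as bars beside the points. The bTBI retinas lie below the sham retinas of the same timepoint in each panel, except that the highest bTBI retina for Kcnip1 at 1 week (48.2 CPM) lies within the sham range.

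Promoter sequences of called genes are shown for orientation. RefSeq (GRCm38.p6) held promoters for 48 of the 64 members, from 250 bases before to 50 after a gene start, and none for Kcnab3 in the table used. Both strands were searched for the GC box, spelled GGGCGG. The TATA box was searched as well, with the letters TATAAA. The last motif was the core of sites for POU4F factors, which RGCs express, and it reads ATTAAT. Capitals mark each match.
Kcnip4 promoter, chr5:49285610-49285909, minus strand: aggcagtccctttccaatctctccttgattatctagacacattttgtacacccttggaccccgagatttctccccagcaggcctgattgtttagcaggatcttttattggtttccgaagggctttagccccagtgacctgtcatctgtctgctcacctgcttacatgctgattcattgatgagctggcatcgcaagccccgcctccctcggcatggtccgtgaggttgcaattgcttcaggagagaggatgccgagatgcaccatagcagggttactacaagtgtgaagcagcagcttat
Kcnc1 promoter, chr7:46396218-46396517, plus strand: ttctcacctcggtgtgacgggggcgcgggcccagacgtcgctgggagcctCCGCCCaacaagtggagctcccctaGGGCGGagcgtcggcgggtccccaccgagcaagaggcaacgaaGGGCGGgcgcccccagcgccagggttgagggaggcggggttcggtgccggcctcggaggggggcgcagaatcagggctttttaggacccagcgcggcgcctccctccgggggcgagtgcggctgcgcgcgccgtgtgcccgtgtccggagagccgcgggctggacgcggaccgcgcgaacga
Kcnc2 promoter, chr10:112269767-112270066, plus strand: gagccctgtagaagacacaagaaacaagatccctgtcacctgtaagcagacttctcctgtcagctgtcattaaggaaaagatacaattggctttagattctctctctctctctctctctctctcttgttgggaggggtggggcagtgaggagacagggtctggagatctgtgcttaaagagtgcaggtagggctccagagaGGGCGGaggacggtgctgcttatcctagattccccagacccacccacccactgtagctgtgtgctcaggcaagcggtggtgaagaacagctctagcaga
Kcnip1 promoter, chr11:33993144-33993443, minus strand: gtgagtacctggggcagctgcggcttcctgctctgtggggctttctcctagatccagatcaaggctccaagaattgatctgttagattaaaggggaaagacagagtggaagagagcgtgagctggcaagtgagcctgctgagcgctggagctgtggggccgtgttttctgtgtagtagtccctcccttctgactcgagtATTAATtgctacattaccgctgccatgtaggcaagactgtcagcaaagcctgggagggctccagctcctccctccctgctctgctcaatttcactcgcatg
The Kcnc1 promoter, the 1 in the table, held 3 GC boxes. The table has 4 promoters for Kcnc2, and the GC box stands in the most upstream of them, shown here, and in none of the other 3. Of the 3 Kcnip1 promoters, the one shown holds ATTAAT, another holds a GC box and the last none of the motifs. Neither of the 2 Kcnip4 promoters, of which 1 is shown, holds any of the motifs. A GC box was present in 49.3% of the 69 Kcn promoters and in 35.7% of all 32851 promoters, TATAAA in 4.35% and 13.6%, and ATTAAT in 2.90% and 4.75%. The median GC content was 58.3% in the Kcn promoters and 52.7% in all promoters, and its part in these shares was not tested. The 69 promoters belong to 48 genes, and some of them overlap.

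Among the alpha subunits, the Kcnc genes encode the Kv3 channels of fast-spiking neurons. Kcnc2 was called at 1 week, with 45.0 to 58.3 CPM in sham (median 51.3) and 35.4 to 44.7 CPM in bTBI retinas (median 37.4). Its log2 fold change was -0.40 ± 0.07 (limma, adjusted p = 0.0034), and at 5 weeks it was -0.20 ± 0.04 (limma, adjusted p = 0.0144). Kcnc2 did not overlap between the groups at either timepoint.

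Kcnc1 was called at 5 weeks, with 131 to 150 CPM in sham (median 134) and 110 to 124 CPM in bTBI retinas (median 119). Its log2 fold change was -0.22 ± 0.04 (limma, adjusted p = 0.00195), beside -0.28 ± 0.06 at 1 week, just outside the threshold (limma, adjusted p = 0.0054). Kcnc4, chosen after its values were seen, gave -0.26 at 1 week and -0.25 at 5 weeks (limma, adjusted p = 0.0406 and 0.0576). All 3 Kcnc members thus had a log2 fold change below 0 at both timepoints, with a median of -0.28 and -0.22, and 1 of 3 was called at each.

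The other alpha subunits described here did not pass the test. Kcnq3, a subunit of the channels of the M-current, was at 21.1 ± 2.05 CPM in sham and 18.3 ± 3.57 CPM in bTBI retinas at 1 week (SD, n = 6, limma, adjusted p = 0.336) and had an adjusted p of 0.180 (limma) at 5 weeks. Kcna2, a Kv1 subunit of axons beside the node of Ranvier, had 131.7 ± 12.6 CPM in sham and 100.5 ± 14.4 CPM in bTBI retinas at 1 week (SD, n = 6, limma, adjusted p = 0.0141) and a log2 fold change of -0.20 at 5 weeks (limma, adjusted p = 0.0481). Kcnd2, a Kv4 subunit of the A-type current, had the log2 fold changes -0.47 ± 0.09 and -0.39 ± 0.10 (limma, adjusted p = 0.0062 and 0.0576). Kcng2, which encodes a subunit that modifies Kv2 channels, was scarce, with 1.80 ± 0.076 CPM in sham and 0.958 ± 0.311 CPM in bTBI retinas at 1 week (SD, n = 6), 53.3% of the sham mean, and the groups did not overlap. Its log2 fold change of -0.53 was not called (limma, adjusted p = 0.00741), and with a pseudocount of 0.1 it was -0.89, lower than that of Kcnip4 (-0.63). Kcna1 had log2 fold changes of -0.31 at 1 week and -0.27 at 5 weeks (limma, adjusted p = 0.108 and 0.134). Of the 6 Kcna genes, 5 lay below 0 at 1 week and 3 at 5 weeks, and of the 6 Kcnh genes, 5 and 6.

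KChIP proteins bind Kv4 channels and set their current. Kcnip4 (chr5:48389502-49524907, minus strand) ranged from 46.9 to 52.1 CPM in sham (median 49.7) and from 27.4 to 39.5 CPM in bTBI retinas (median 32.2) at 1 week. The groups did not overlap, and the log2 fold change was -0.61 ± 0.08 (limma, adjusted p = 0.000271), a level of 65.0% of the sham mean. At 5 weeks Kcnip4 ranged from 37.2 to 42.8 CPM in sham (median 41.1) and from 29.0 to 35.3 CPM in bTBI retinas (median 34.0), with -0.30 ± 0.05 (limma, adjusted p = 0.001875).

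Kcnip1 was called at 5 weeks, with 38.3 to 41.9 CPM in sham (median 40.1) and 32.1 to 36.6 CPM in bTBI retinas (median 33.1). Its log2 fold change was -0.25 ± 0.04 (limma, adjusted p = 0.00177), and at 1 week it was -0.32 ± 0.07, where the groups overlapped (limma, adjusted p = 0.0080). Kcnip2 and Kcnip3 also lay below 0 at both timepoints and were not called.

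Of the Kvbeta subunits, which attach to Kv1 channels, Kcnab3 was called at 1 week, with 40.1 to 46.9 CPM in sham (median 42.9) and 28.3 to 36.0 CPM in bTBI retinas (median 32.7). Its log2 fold change was -0.39 ± 0.06 (limma, adjusted p = 0.001008), and at 5 weeks it was -0.20 ± 0.04 (limma, adjusted p = 0.00736). Of its exon bases 5.13% are shared with Kcnab3os on the opposite strand, and for Kcnip4 4.63% with 5730480H06Rik, and the strand setting of the counting is not given in the sources used here. Kcnab2 did not overlap between groups at either timepoint, with -0.14 and -0.16 (limma, adjusted p = 0.0754 and 0.0065).

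**Figure D2:**
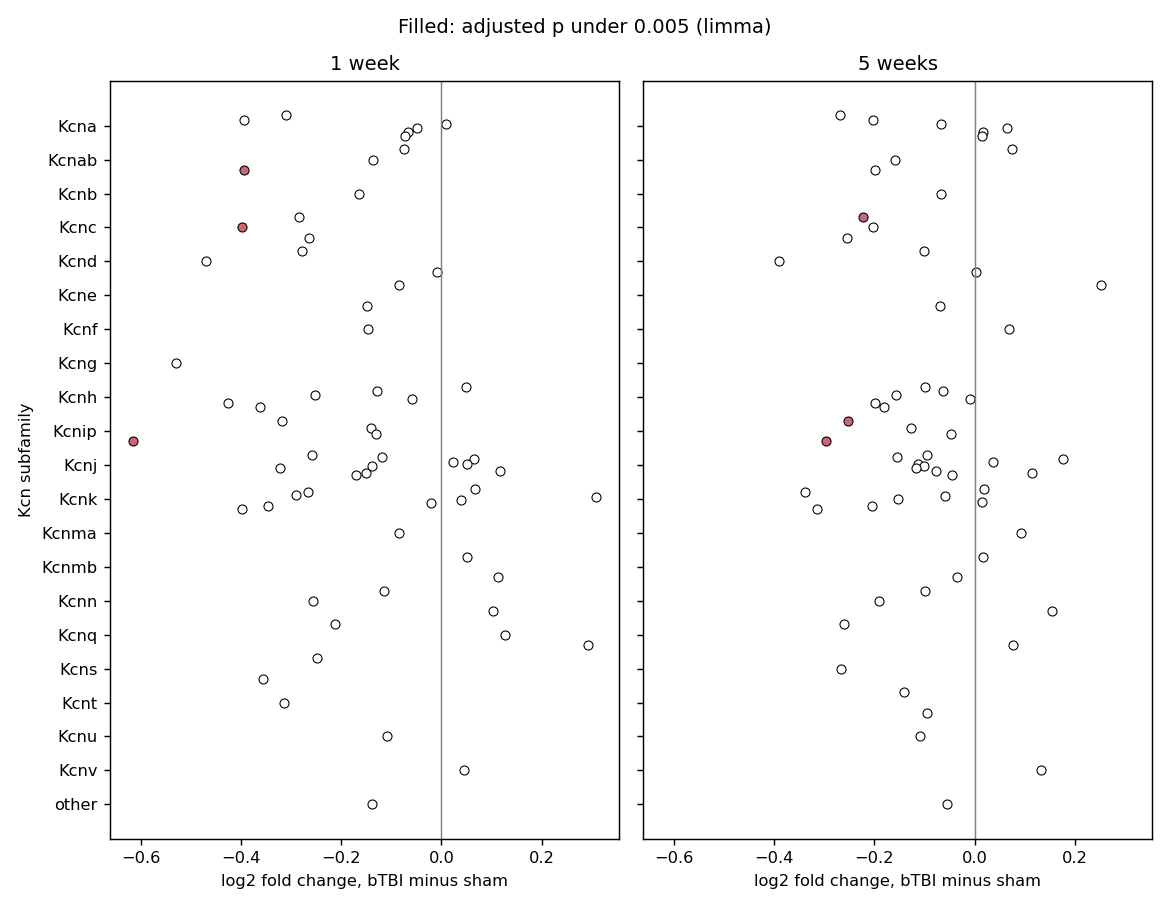
Log2 fold change (bTBI minus sham, horizontal axis) of each Kcn gene by subfamily (vertical axis) at 1 week and 5 weeks, with called genes filled; "other" is the noncoding Kcnq1ot1. All 3 Kcnc and all 4 Kcnip members lie below 0 at both timepoints, and no filled point lies above 0.

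Among the inward rectifiers 0 of 10 Kcnj genes were called at either timepoint, with medians of -0.13 and -0.09. Of all genes tested, 0.985% were called lower and 1.27% higher at 1 week, and 0.823% and 0.0126% at 5 weeks. A count of 0 of 10 therefore does not set the Kcnj genes apart. Kcnj5, a subunit of G protein-gated channels, was named for the smallest p of the 10 Kcnj genes at 1 week. It had 23.3 ± 1.05 CPM in sham and 18.6 ± 2.95 CPM in bTBI retinas at 1 week (SD, n = 6, limma, adjusted p = 0.0470). Kcnj8, listed beforehand for pericytes, had log2 fold changes of -0.15 at 1 week and 0.11 at 5 weeks (limma, adjusted p = 0.472 and 0.812). Kcnj13, the Kir7.1 channel of the pigment epithelium, had 41.9 ± 12.7 CPM in sham and 43.5 ± 12.8 CPM in bTBI retinas at 1 week, and 49.1% of its exon bases are shared with Gigyf2 on the opposite strand.

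Of the 2-pore channels 0 of 8 Kcnk genes were called at 1 week, against 0.985% of all genes lower and 1.27% higher. At 5 weeks 0 of 7 were called, against 0.823% lower and 0.0126% higher. Kcnk13, which microglia express, was the 1 gene higher at an unadjusted p under 0.05 at 1 week, with 1.41 ± 0.18 CPM in sham and 2.03 ± 0.64 CPM in bTBI retinas (SD, n = 6, limma, adjusted p = 0.229). Kcna3, listed beforehand with Kcnk13 for microglia and leukocytes, had 5.91 ± 0.67 CPM in sham and 5.95 ± 0.72 CPM in bTBI retinas at 1 week (SD, n = 6, limma, adjusted p = 0.981). Kcnk6 and Kcnn4, listed with them, were tabled at neither timepoint. Microglial markers differed in the same retinas, with 4 of 5 called higher at 1 week (against 1.27% of all genes). Their sum was 20.6 to 34.7 CPM in sham and 41.3 to 138.8 CPM in bTBI retinas. The part of these markers in the Kcnk13 value was not tested.

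The 3 Kcn members with the highest level per length were called at neither timepoint. In sham retinas at 1 week Kcnj14 stood at 224 ± 16.4 CPM per kb of exon, Kcnv2 at 115 ± 14.3 and Kcnab2 at 90.0 ± 1.87 (SD, n = 6). Kcnv2 encodes a subunit of a potassium channel of photoreceptors, and Kcnj14 an inward rectifier. Their log2 fold changes were 0.05 and 0.02 at 1 week (95% intervals -0.14 to 0.23 and -0.09 to 0.14) and 0.13 and 0.04 at 5 weeks (95% intervals 0.02 to 0.24 and -0.03 to 0.10). Kcnv2 was 1 of the 4 Kcn genes higher at an unadjusted p under 0.05 at 5 weeks, beside Kcne1l (0.25), Kcnj13 (0.18) and Kcnma1 (0.09), and their adjusted p ranged from 0.156 to 0.386 (limma). Kcnab2 had log2 fold changes of -0.14 and -0.16 (limma, adjusted p = 0.0754 and 0.0065), with no overlap between groups at either timepoint. Of the 10 Kcn members with the highest level per kb, 0 were called at 1 week, against 0.985% of all genes lower and 1.27% higher. At 5 weeks 1 was called (Kcnc1, lower), against 0.823% lower and 0.0126% higher. Kcnip4 stood at 13.6 CPM per kb at 1 week.

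**Figure D3:**
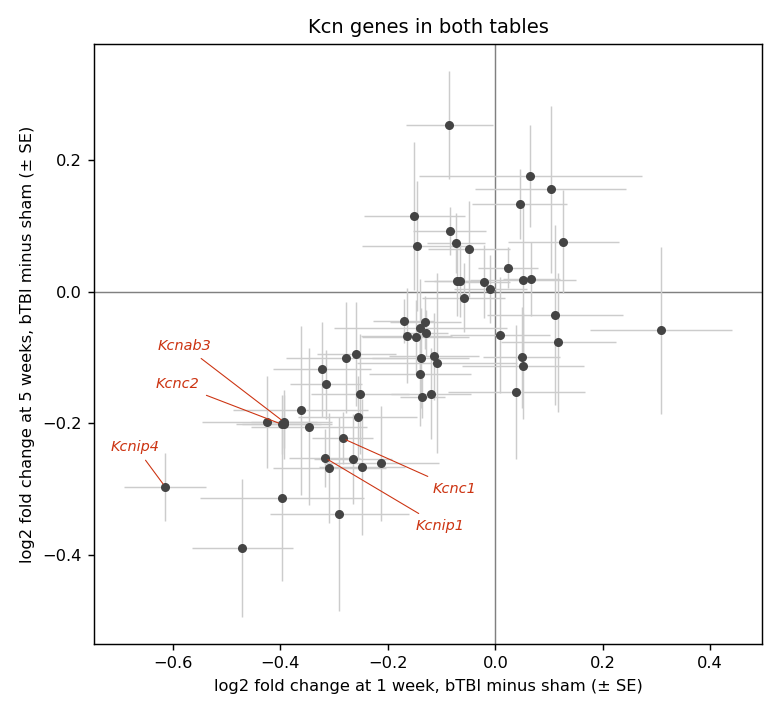
Log2 fold change (bTBI minus sham) at 1 week (horizontal axis) against 5 weeks (vertical axis) for the 59 Kcn genes in both tables, with SE as bars and the 5 genes called at either timepoint named. Of the genes in both tables Kcnip4 lies farthest to the left, at -0.61.

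Whether the bTBI effect differed between the timepoints was tested over 14455 genes. For 0 of 59 Kcn genes was the difference called by limma (against 0.104% of all genes, and against 0.768% at an adjusted p under 0.05, where 0 Kcn genes passed as well), and 7 had an unadjusted p under 0.05 (against 8.5%). Kcnip4 had the smallest p, with its effect 0.32 higher (nearer 0) at 5 weeks (95% interval 0.13 to 0.51, limma, adjusted p = 0.132). Kcne1l, a gene of the family of single-pass accessory subunits, came next, with a log2 fold change of -0.09 at 1 week and 0.25 at 5 weeks and a difference of 0.34 (95% interval 0.12 to 0.56, limma, adjusted p = 0.192). For Kcnab3 the difference was 0.20 (95% interval 0.05 to 0.34, limma, adjusted p = 0.322).

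Genes of proteins that hold or accompany potassium channels were counted from a list of 26, of which 24 were tabled at each timepoint. At 1 week 4 were called lower (against 0.985% of all genes) and 0 higher (against 1.27%): Sptbn4 (beta IV spectrin of the axon initial segment), Cntnap1 (Caspr of the paranode), Dpp10 (a Kv4 partner) and Atp1b1 (a sodium pump subunit). Dpp10 had 25.0 ± 2.05 CPM in sham and 15.5 ± 3.17 CPM in bTBI retinas (SD, n = 6), a log2 fold change of -0.67 (limma, adjusted p = 0.00123). At 5 weeks 3 were called lower (against 0.823%) and 0 higher (against 0.0126%), namely Sptbn4, Cntnap1 and Cntn2, which ties Kv1 channels to the axon.

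Markers of RGCs were also lower in the bTBI retinas. All 8 were called lower at both timepoints (against 0.985% of all genes at 1 week and 0.823% at 5 weeks). Their sum was 1414 to 1711 CPM in sham and 747 to 1276 CPM in bTBI retinas at 1 week, and 800 to 878 CPM against 416 to 660 CPM at 5 weeks. The bTBI retina with the highest RGC sum at 1 week, replicate 2, also had the highest Kcnip4, Kcnip1 and Kcnc1 of the bTBI retinas, while Kcnab3 was highest in replicate 4 and Kcnc2 in replicate 3. At 5 weeks the highest RGC sum was that of replicate 4, which had the highest Kcnip4 and Kcnc1 but the lowest Kcnip1, and Kcnab3 was highest in replicate 5 and Kcnc2 in replicate 6. In whole retina, fewer cells of a type and less RNA per cell cannot be told apart, and the part of the RGC markers in the Kcn values was not tested. Markers of rods, cones, bipolar cells and amacrine cells were called at neither timepoint (0 of 4 in each list), nor were those of Mueller glia, endothelium and pericytes (0 of 3 in each). Of all genes tested, 0.985% were called lower and 1.27% higher at 1 week, and 0.823% and 0.0126% at 5 weeks. Counts of 0 in such short lists therefore do not show that these cells were unchanged. At 1 week the sum of the Mueller glia markers was nevertheless 5063 to 5632 CPM in sham and 4607 to 4967 CPM in bTBI retinas, and that of the pericyte markers 125.5 to 143.4 against 146.2 to 160.0 CPM, in both cases with no overlap. The endothelial sum was 208 to 290.4 CPM in sham and 264 to 411 CPM in bTBI retinas. For cones the sum at 1 week was 620 to 817 CPM in sham and 579 to 703 CPM in bTBI retinas. For the pigment epithelium it was 4108 to 7561 CPM in sham and 3578 to 6332 CPM in bTBI retinas. The part of these lists in the Kcn values was not tested either.

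Within the 6 bTBI retinas the log2 RGC sum and log2 Kcnip4 had r = 0.86 and rho = 0.54 at 1 week (exact permutation p = 0.0278 and 0.297). Without the 2 retinas farthest from the median sum r was -0.17. The 4 retinas left had sums of only 859 to 934 CPM, so that r among them decides little. For Kcnc1 at 5 weeks r was 0.91 and rho 0.94 (exact permutation p = 0.00972 and 0.0167), with r = 0.69 without the 2 farthest retinas. Over the 5 called genes r in the bTBI retinas ran from 0.27 (Kcnab3) to 0.87 (Kcnip1) at 1 week, with 0.32 for Kcnc1, and from -0.39 (Kcnip1) to 0.91 (Kcnc1) at 5 weeks. Without the 2 farthest retinas it ran from -0.17 to 0.75 and from -0.94 (Kcnc2) to 0.69, and for Kcnip4 at 5 weeks it went from 0.69 to -0.42. Of the 20 such relations (5 called genes, 4 groups), the smallest adjusted p for r was 0.172, so that none passed.

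**Figure D4:**
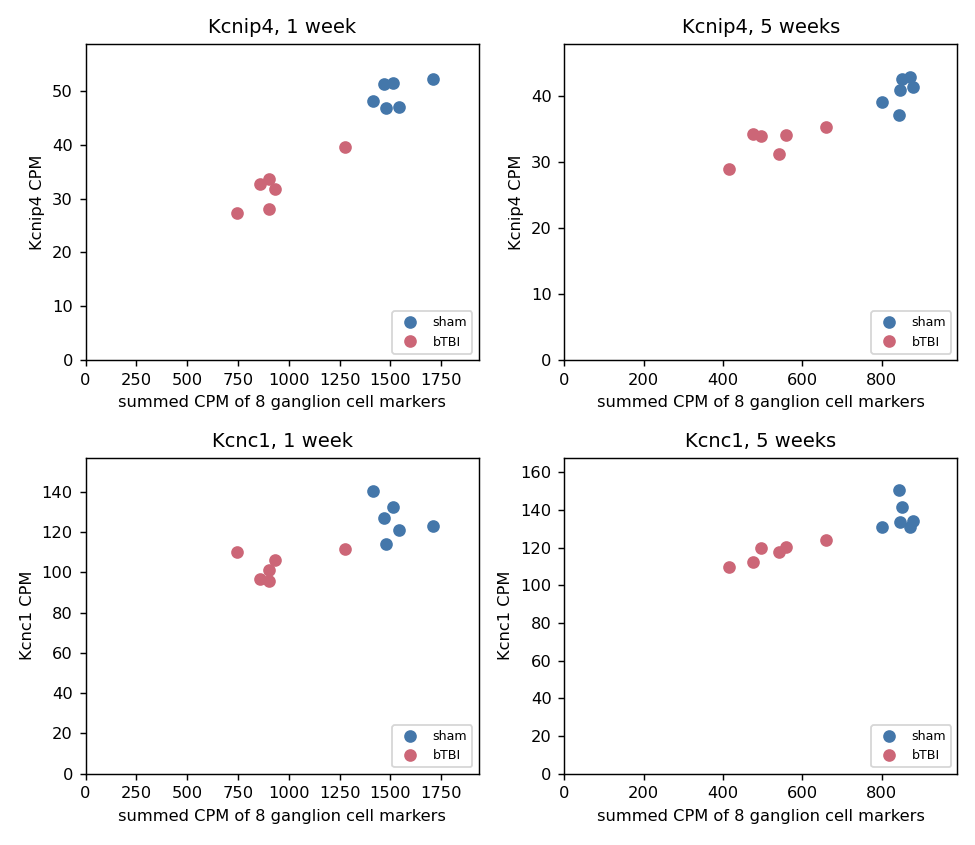
Kcnip4 and Kcnc1 CPM (vertical axes) against the summed CPM of 8 RGC markers (horizontal axes) in each retina, sham and bTBI, by timepoint. The bTBI retinas lie lower on both axes than the sham retinas of the same timepoint.

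Lens and myelin transcripts differed between single retinas at 1 week. Lens markers summed to at most 525 CPM in sham and reached 5664 CPM in bTBI replicate 6, and bTBI replicate 3 had 3342 CPM of the 2 tabled oligodendrocyte markers beside at most 43.3 CPM in sham. With all 12 retinas 336 of all 14922 genes were called at 1 week. Without the lens-rich bTBI replicates 5 and 6, 1 Kcn gene was called at 1 week (Kcnip4), beside 112 of all genes. Without bTBI replicate 2, 7 Kcn genes were called, beside 486 of all genes. At 5 weeks 1 was called without sham replicate 1, 2 or 4 or bTBI replicate 5, beside 94, 88, 95 and 112 of all genes. Without bTBI replicate 4, 5 were called, beside 163 of all genes. With all 12 retinas 133 of all 15920 genes were called at 5 weeks. Over the 12 single omissions at 1 week, Kcnip4 and Kcnab3 were called in 12 and Kcnc2 in 3. At 5 weeks Kcnc1 was called in 8, Kcnip4 in 8 and Kcnip1 in 7. With all 24 retinas in one fit 0 Kcn genes were called at 5 weeks, beside 75 of all 14455 genes. With a constant prior 0 were called at 5 weeks, beside 56 of all 15920 genes.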

How the data were processed

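RNA of 24 whole retinas was compared, 6 bTBI and 6 sham at each timepoint. The authors made stranded libraries from polyA RNA, used STAR for mapping to GRCm38 (mm10), featureCounts for counting per gene and edgeR for the group comparison. The deposited signal values are gene counts divided by the authors by an effective library size and scaled like CPM, filtered for low counts, in 1 table per timepoint. Levels set across the tables were normalized separately. No column of values was left unused.

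Gene IDs were matched to symbols of GENCODE M21. log2(CPM + 1) was compared with limma 3.58.1 in R 4.3.3 with an intensity trend in the prior (trend=TRUE), adjusted by Benjamini-Hochberg over all genes of a table, and the difference between timepoints in a fit of 24 retinas. The test was checked on simulated data. Exact permutation tests ran in Python 3.11.15 with numpy 2.4.6, with ranks and adjusted p from scipy 1.17.1. The tables hold scaled values, and a count test on the reads inferred from their steps was left out. P-values measure the spread between mice.

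Of the genes with a Kcn symbol, 5 are not reported here and are in no count of members. The members and all lists were chosen with earlier results of these data known. The genes named are those called, the tabled members of a fixed list of roles and the largest changes. Others had the smallest p in their subfamily (Kcnj5 among them) or the smallest p for the difference between timepoints. Kcnc4, Kcnd1, Kcng2, Kcnma1, Kcnt1 and Kcnj14 were added after values were seen. Alternatives were another scaling (median of ratios), a pseudocount of 0.1, a minimum of 1 CPM in 6 of 12 retinas, a constant and a robust prior, all 24 retinas in one fit, a replicate block, a threshold of 0.05 and leaving out retinas.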

Additional observations from a re-analysis of the deposited data

Results flagged for a closer look

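Of 98 groups of 6 retinas checked, 5 held a retina far from the others by Dixon's criterion on log2 values. Chance flags about 5% of such groups. At 1 week, bTBI replicate 1 was lowest for Kcnh7 (11.8 CPM, others 18.0 to 22.0) and bTBI replicate 4 for Kcnt1 (9.94 CPM, others 11.1 to 11.5). At 5 weeks, bTBI replicate 1 was lowest for Kcnc2 (36.7 CPM, others 41.1 to 43.3). For Kcnj13 at 5 weeks, sham replicate 4 was lowest (13.8 CPM, others 16.1 to 17.5) and bTBI replicate 3 highest (23.9 CPM, others 16.7 to 18.5).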

How the results depend on the processing

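At 1 week 3 Kcn genes were called, beside 336 of all 14922 genes. The count became 8 with all 24 retinas in one fit (beside 685 of all 14455 genes) and 12 at a threshold of 0.05 (beside 907). It was 1 when bTBI replicates 5 and 6 were left out together (beside 112). Over the single omissions it ranged from 2 to 7 (beside 189 to 486). At 5 weeks 3 were called, beside 133 of all 15920 genes. The count became 0 with a constant prior (beside 56) and 0 with all 24 retinas in one fit (beside 75 of all 14455 genes). It was 7 at a threshold of 0.05 (beside 326). Over the single omissions it ranged from 1 to 5 (beside 88 to 163), the highest without bTBI replicate 4. Partner genes called became 2 at 1 week when both lens-rich bTBI retinas were left out, beside 112 of all genes. With a constant prior 1 partner gene was called at 5 weeks, beside 56 of all genes. A looser threshold calls at least as many genes by design, and the cause of the other moves was not tested. In single omissions log2 fold changes not called turned sign for Kcna3 (-0.030 to 0.053), Kcnj13 (-0.094 to 0.181) and Kcnj14 (-0.0078 to 0.047) at 1 week and for Kcnk13 (-0.122 to 0.0136) at 5 weeks. The labels do not say whether replicate numbers pair the retinas. Same-numbered deviations correlated between -0.25 and 0.54 (replicate 1) at 1 week and between -0.11 and 0.15 at 5 weeks, which cannot exclude a pairing. With the replicate number as a block, 3 Kcn genes were called at 1 week (beside 293 of all genes) and 2 at 5 weeks (beside 134). The planned edgeR test on counts was left out, although whole reads could be inferred from the steps between values.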

Other observations

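Some Kcn genes stood at different levels in the sham retinas of the 2 tables, which were normalized separately and made with different RNA kits. Kcnt1, a sodium-activated channel, had a sham mean of 14.0 CPM at 1 week and 82.7 CPM at 5 weeks, and Kcnd1 had 4.93 and 19.6 CPM. Kcnj13 went the other way, with 41.9 and 16.4 CPM. The summed markers of the pigment epithelium had sham means of 5451 CPM at 1 week and 3099 CPM at 5 weeks, and their part in the Kcnj13 values was not tested. Timepoint, kit and table cannot be told apart here. Within its table, the log2 fold change of Kcnt1 was -0.31 at the earlier and -0.14 at the later timepoint, and it was called at neither (limma, adjusted p = 0.0091 and 0.255).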
